A study of Homo sapiens with 4 samples.

Results

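Regulators of cell death were followed across 4 treatments of one glioblastoma line: the effectors BAX and BAK1, the BH3-only genes BBC3, PMAIP1 and BID, the pro-survival genes BCL2L1 and MCL1, the death receptor genes FAS and TNFRSF10B, and the p53 target TP53I3. The members were every probe set of the array whose only gene symbol is 1 of these 10, which gave 30 of 49395 probe sets, or 10 of the 18132 genes that could be named. All cells were U87MG, an established human glioblastoma line. Cells of the control group received DMSO, the MPA group 10 µM mycophenolic acid, the guanosine group 100 µM guanosine, and the last group 10 µM mycophenolic acid with 100 µM guanosine. Total RNA was taken at 24 h and read on PrimeView arrays, 1 array for each condition. With 1 array per condition and 1 cell line, the variation between cultures is unknown, no test was possible, and every difference below is a difference between arrays. Fewer cells that express a gene and less of its RNA per cell cannot be told apart in such samples.

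Mycophenolic acid (MPA) blocks IMP dehydrogenase, the enzyme that makes guanine nucleotides from IMP, and guanosine can refill that pool through salvage. Shortage of nucleotides and disturbance of the nucleolus are known ways to stabilise p53, a transcription factor that raises genes of cell cycle arrest and of cell death. In the mitochondrial death pathway, BAX and BAK1 open the outer mitochondrial membrane, pro-survival proteins such as those from BCL2L1 and MCL1 hold them back, and BH3-only proteins neutralise the pro-survival proteins or activate the effectors. In the other pathway, the receptors FAS and TNFRSF10B start caspases at the cell surface, and BID links that signal to the mitochondria.

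The MPA array stood apart for some of these genes and not for others. TP53I3, FAS, BBC3, TNFRSF10B and BAX had higher signals on the MPA array than on each of the other 3 arrays, by 0.86 to 2.97 on the log2 scale over the nearest of them. Being highest on the MPA array is common in itself, since 41.3% of 11272 genes were, and it held for 9 of 10 members. On those other 3 arrays the same 5 genes lay within 0.04 to 0.29 of each other. PMAIP1 and BCL2L1 were higher with MPA by less than 1.5-fold, BAK1 and BID differed from control by 0.07 and 0.05, and MCL1 had its lowest signal with MPA. A gene is represented here by its brightest probe set (mean of the 4 arrays), and the counting threshold was 1.5-fold. By that reading 5 of 10 members were at least 1.5-fold higher with MPA than in control and 0 were lower, while of 11204 genes compared 5.31% were higher and 7.31% lower. At 2-fold, 4 of 10 members were higher against 1.69% of all genes. The members were chosen with earlier results of these data known, so these shares describe them and are no test. The median log2 difference of the 10 members was 0.60 and that of all genes 0.01. Signals under a floor of 63.0, the median of the arrays' probe sets, were taken as too dim to read. Of the 30 member probe sets 22 reached it on all 4 arrays, 3 on some and 5 on none, and the brightest of each gene reached it on all 4. Over all 30 probe sets, with no floor, 10 were at least 1.5-fold higher and 3 lower, against 2.96% and 4.39% of the 44994 probe sets that have 1 symbol. With probe sets that may bind more than 1 gene left out, 6 members passed 1.5-fold, BCL2L1 among them as lower. It stood at -0.99 there, with its MPA signal below the floor.

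**Figure D1:**
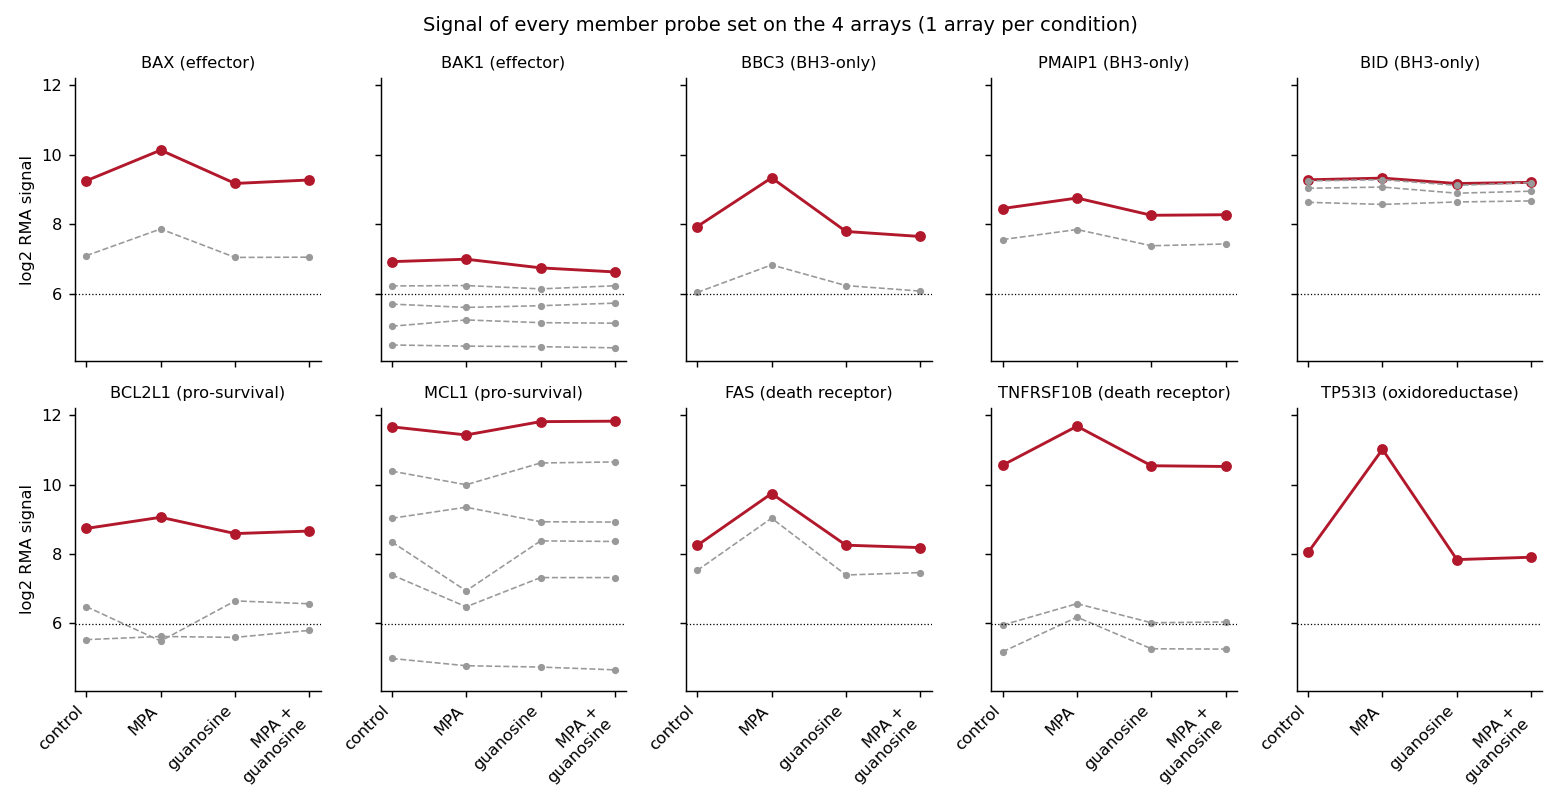
Log2 RMA signal of all 30 member probe sets on the control, MPA, guanosine, and MPA and guanosine arrays, 1 panel per gene. The red line is the gene's brightest probe set, grey dashed lines are its other probe sets, lines join the arrays only to guide the eye, and the dotted line is the floor of 63.0 in signal; BAX, BBC3, FAS, TNFRSF10B and TP53I3 peak on the MPA array in every probe set, while those of MCL1 and BCL2L1 diverge.

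The upstream sequence of 5 members is shown, 4 of them at least 1.5-fold higher with MPA and 1, BAK1, within 1.5-fold of control. An exact p53 half-site is present in the windows of FAS and BAK1. Sequences are RefSeq's, in GRCh38.p14, and give the 250 bases before the annotated start, 5′ to 3′ on the gene's own strand. Capitals mark exact matches to the p53 half-site consensus and to CACGTG, the E-box that MYC and related factors bind. Both motifs read the same on either strand, and the marked matches do not overlap.
TP53I3, chr2:24084835-24085084, minus strand: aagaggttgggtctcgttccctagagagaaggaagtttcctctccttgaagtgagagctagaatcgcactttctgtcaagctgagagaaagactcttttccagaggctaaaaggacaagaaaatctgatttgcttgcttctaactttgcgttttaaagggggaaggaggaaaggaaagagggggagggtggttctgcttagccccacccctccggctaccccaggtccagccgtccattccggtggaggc
BBC3, chr19:47232668-47232917, minus strand: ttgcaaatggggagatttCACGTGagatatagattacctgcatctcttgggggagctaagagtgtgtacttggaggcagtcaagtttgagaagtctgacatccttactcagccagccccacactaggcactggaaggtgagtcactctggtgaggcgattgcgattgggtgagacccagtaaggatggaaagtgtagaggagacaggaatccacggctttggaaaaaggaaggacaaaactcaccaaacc
BAX, chr19:48954625-48954874, plus strand: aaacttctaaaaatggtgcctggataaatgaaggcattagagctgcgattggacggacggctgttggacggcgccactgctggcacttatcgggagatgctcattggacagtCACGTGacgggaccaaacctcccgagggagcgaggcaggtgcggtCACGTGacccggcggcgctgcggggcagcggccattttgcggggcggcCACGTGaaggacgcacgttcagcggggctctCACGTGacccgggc
FAS, chr10:88991181-88991430, plus strand: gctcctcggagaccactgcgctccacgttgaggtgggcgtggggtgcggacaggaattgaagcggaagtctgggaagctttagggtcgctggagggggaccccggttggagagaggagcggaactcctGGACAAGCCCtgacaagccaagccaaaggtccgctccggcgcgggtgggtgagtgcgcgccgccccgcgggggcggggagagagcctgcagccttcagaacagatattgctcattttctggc
BAK1, chr6:33580277-33580526, minus strand: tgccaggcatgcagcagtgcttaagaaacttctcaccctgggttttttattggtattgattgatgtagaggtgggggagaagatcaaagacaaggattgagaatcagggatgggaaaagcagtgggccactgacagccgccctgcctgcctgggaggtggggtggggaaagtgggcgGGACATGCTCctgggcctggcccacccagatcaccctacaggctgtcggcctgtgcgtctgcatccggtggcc
The RefSeq table held 15 starts for 8 of the 10 members, and none was used for TNFRSF10B and MCL1. An exact p53 half-site stood before 2 of the 15 starts, and 5.57% of 35116 promoters of the same length hold one. In FAS it is GGACAAGCCC, 122 bases before 1 of the 3 starts listed, and in BAK1 it is GGACATGCTC, 73 bases before the start. TP53I3, BBC3 and BAX, all at least 1.5-fold higher with MPA, had no exact half-site in this window, which says only that those letters are not in it. CACGTG stood before 4 of the 15 starts, against 6.34% of all promoters, and 2 of the 4 are neighbouring BID starts that share 1 copy. The BAX window holds 4 copies, beginning 138, 93, 45 and 14 bases before the start, as do only 5 of the 35116 promoters searched, counting those with 4 or more. These matches are letters in a reference sequence, and no binding was measured.

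TP53I3, a quinone oxidoreductase gene raised by p53, was read by a single probe set. Its signal was 264.0 in control, 2071 with MPA, 229.0 with guanosine and 240.1 with both compounds. MPA was 7.84-fold above control, and the other 3 arrays lay within 0.21 on the log2 scale. Among 11204 genes it ranked 4 from the top in MPA against control. No second probe set of the gene was there to compare.

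The death receptors were both higher with MPA. FAS, the receptor for FAS ligand, had a signal of 303.8 in control, 856.5 with MPA, 305.3 with guanosine and 291.0 when both were given, which made MPA 2.82-fold higher than control. Its other probe set gave 184.3, 523.6, 168.4 and 176.7 in the same order. Both probe sets were highest on the MPA array, with log2 differences from control of 1.495 and 1.51, and on the other 3 arrays they stayed within 0.07 and 0.13.

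TNFRSF10B, the TRAIL receptor DR5, had its bright signal on a probe set whose probes may bind more than 1 gene. That signal was 1510 in control, 3287 with MPA, 1492 with guanosine and 1471 with both, 2.18-fold higher with MPA. The dimmer probe sets were also highest with MPA. One read 61.9, 95.0, 64.9 and 65.9, with control below the floor, so that MPA was at least 1.51-fold higher. The other read 36.3, 72.5, 38.6 and 38.3 and reached the floor on the MPA array alone, which gives at least 1.15-fold.

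Among the BH3-only genes, BBC3 was the one past 1.5-fold. BBC3 encodes PUMA, which binds the pro-survival proteins and is a p53 target. It read 243.6 in control, 645.5 with MPA, 221.0 with guanosine and 199.9 with both, 2.65-fold higher with MPA than in control. The dimmer probe set read 65.4, 113.4, 74.96 and 67.2, a smaller difference of 0.79 on the log2 scale but again highest with MPA. On the bright probe set the array with both compounds was the lowest, 0.29 below control.

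PMAIP1 encodes NOXA, which binds the MCL1 protein, and its 2 probe sets were alike. The brighter read 349.4 in control, 430.9 with MPA, 305.3 with guanosine and 308.7 with the pair. The dimmer read 188.0, 229.7, 166.2 and 172.2. MPA was above control by 0.30 and 0.29, while control lay above guanosine by 0.19 and 0.18, so the MPA gap exceeded the spread of the other 3 arrays by little. PMAIP1 stood at rank 1802 of 11204 genes.

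BID, cut by an initiator caspase to activate the effectors, was nearly level. Its brightest probe set read 620.1 in control, 641.1 with MPA, 575.7 with guanosine and 589.0 with both. Over its 4 probe sets MPA against control lay between -0.06 and 0.05, and in 3 of the 4 the gap between control and guanosine was larger than that between MPA and control.

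The effector genes parted. BAX read 608.2 in control, 1122 with MPA, 576.5 with guanosine and 618.2 with both, 1.84-fold higher with MPA, and its second probe set, of the cross-binding kind, read 136.2, 232.4, 131.6 and 132.2. BAX was higher by 0.88 and 0.77 on the log2 scale, with the other 3 arrays within 0.10 and 0.05. BAK1 read 120.9, 127.0, 106.9 and 98.4, so that MPA and control were closer to each other than either was to the array with both compounds. Of the 5 BAK1 probe sets 3 were below the floor on all 4 arrays, and the second one above it differed by 0.01.

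Both pro-survival genes gave different answers on different probe sets. BCL2L1, which encodes BCL-XL and its shorter splice form, read 426.6 in control, 533.2 with MPA, 385.0 with guanosine and 405.0 with both on its brightest probe set, which is of the cross-binding kind. This put MPA 0.32 above control. The probe set 11759514_at, dimmer, read 89.6, 45.02, 100.4 and 94.8, with MPA lowest and below the floor, so that MPA was at least 1.42-fold lower than control. The third was below the floor on all 4 arrays. The direction of BCL2L1 therefore turned with the probe set chosen, in this comparison and in those with guanosine.

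MCL1, a short-lived pro-survival protein gene, had 6 probe sets that spanned the widest range of any member. The brightest, 11715483_s_at, read 3248 in control, 2760 with MPA, 3600 with guanosine and 3635 with both, lowest with MPA at -0.23 against control. The next, 11715482_a_at, read 1340, 1021, 1577 and 1610, also lowest with MPA at -0.39. Both were higher on the guanosine arrays than in control.

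Other MCL1 probe sets showed larger drops and little movement elsewhere. Probe set 11715487_a_at read 326.3, 122.8, 332.7 and 328.9, a log2 difference of -1.41 between MPA and control, with the other 3 arrays within 0.03. Probe set 11715484_a_at read 169.1, 89.2, 159.8 and 159.9, a difference of -0.92. In the other direction, 11715485_a_at read 522.7, 651.6, 487.6 and 484.4 and was highest with MPA, at 0.32. The sixth was below the floor on every array. Which transcript forms each of these probe sets reads was not analysed here.

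**Figure D2:**
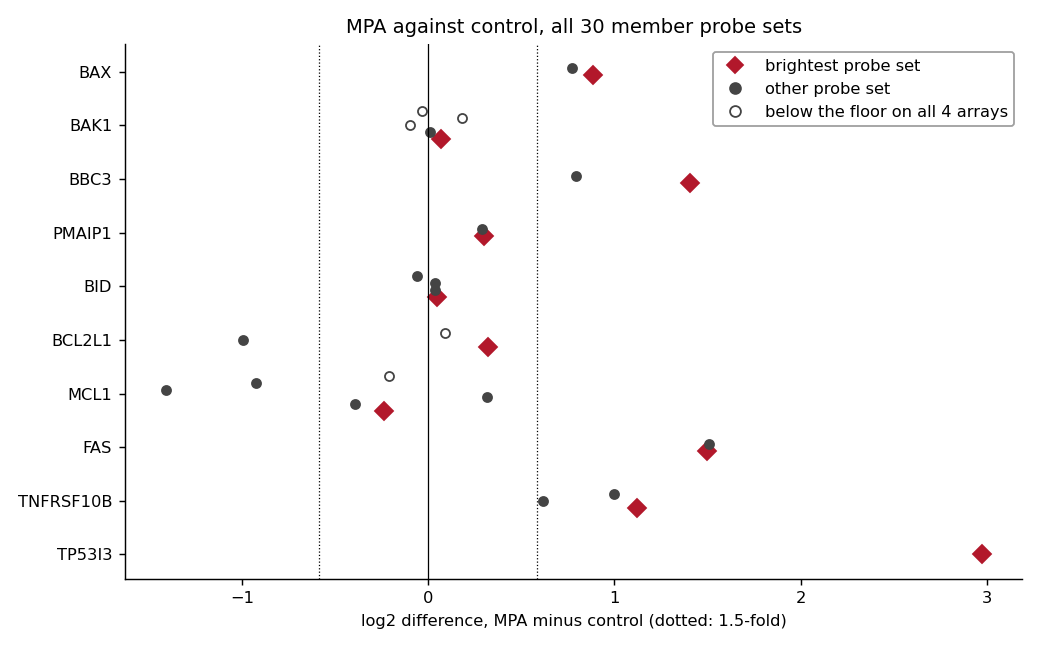
Log2 difference between the MPA and control arrays for each of the 30 member probe sets, by gene. Red diamonds are the brightest probe set of a gene, filled grey circles its others, open circles those below the floor on all 4 arrays, and dotted lines 1.5-fold; all 10 probe sets of TP53I3, FAS, BBC3, BAX and TNFRSF10B lie right of the upper line, and 2 of MCL1 and 1 of BCL2L1 lie left of the lower one.

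Guanosine alone left all 10 members within 1.5-fold of control. The count was 0 of 10 in either direction, and of 10919 genes compared 0.449% passed, so the members' count is near the background. The members' differences ran from -0.21 for TP53I3 to 0.15 for MCL1, with a median of -0.12 beside -0.0012 for all genes, and 8 of 10 were lower. In the same comparison 49.4% of all genes were higher. PMAIP1 was at -0.19, BAK1 at -0.18, BCL2L1 at -0.15 and BBC3 at -0.14, but BCL2L1 was at 0.16 without cross-binding probe sets and BBC3 at 0.03 as the median of its probe sets. TNFRSF10B and FAS, both near 0, also changed sign with the choice of probe sets, so the count of 8 is not firm. MCL1 was higher on its brightest probe sets, by 0.15 and 0.24. Scaling the arrays on the added poly-A transcripts moved the median of all genes to -0.23, and MCL1 with it to -0.08.

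With guanosine present, no member differed by 1.5-fold between the arrays with and without MPA. In both compounds against guanosine alone, 0 of 10 members passed in either direction. Of 10861 genes 0.0184% did, so the members' count is near the background. The largest differences were -0.14 for BBC3 and 0.10 for BAX, and the SD over all genes of this comparison was 0.10. TP53I3, 7.84-fold higher with MPA in the absence of guanosine, was at 0.07 on the log2 scale in its presence, and FAS was at -0.07 and TNFRSF10B at -0.02. This comparison has no array in common with MPA against control.

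The change in the MPA difference between cells without and with guanosine was -2.90 for TP53I3, -1.56 for FAS, -1.55 for BBC3, -1.14 for TNFRSF10B and -0.78 for BAX. It was -0.29 for PMAIP1, -0.25 for BCL2L1, -0.19 for BAK1, -0.02 for BID and 0.25 for MCL1. The sign for BCL2L1 was the opposite on 11759514_at, whose MPA signal was below the floor. The BAK1 change was 0.08 on its other probe set above the floor. For MCL1 the change was 1.39 on 11715487_a_at, 0.92 on 11715484_a_at and -0.33 on 11715485_a_at. By the brightest probe sets, it was past 1.5-fold downward for 5 of 10 members and upward for 0, where 5.36% and 8.28% of 11272 genes were. With 1 array per condition this change has no error to set it against.

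**Figure D3:**
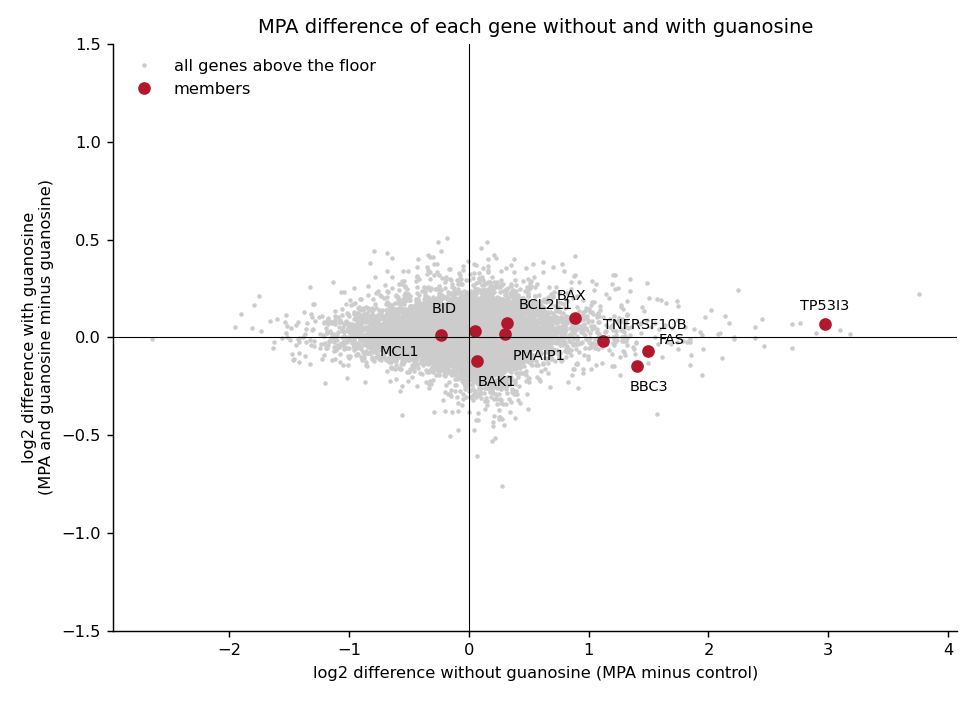
Log2 difference made by MPA without guanosine (horizontal, MPA minus control) and with guanosine (vertical, both compounds minus guanosine), on axes of different scale, for all genes above the floor (grey) and the 10 members (red). The members spread from -0.23 to 2.97 along the horizontal axis and lie between -0.14 and 0.10 on the vertical one.

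Both compounds against MPA alone gives what guanosine did to MPA-treated cells, and it shares the MPA array with MPA against control. Here 5 of 10 members were at least 1.5-fold lower and 0 higher, against 4.77% and 8.47% of 11215 genes. TP53I3 was 8.63-fold lower, BBC3 3.23-fold, FAS 2.94-fold, TNFRSF10B 2.24-fold and BAX 1.81-fold lower with guanosine added. PMAIP1 differed by -0.48, BCL2L1 by -0.40, BAK1 by -0.37 and BID by -0.12, while on 11759514_at BCL2L1 was higher with guanosine added. BAK1 differed by -0.01 on its other probe set above the floor. MCL1 was higher by 0.40 on its brightest probe set, by 1.42 on 11715487_a_at and by 0.84 on 11715484_a_at, whereas 11715485_a_at differed by -0.43.

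Both compounds against control, which shares arrays with the comparisons above, had 0 of 10 members past 1.5-fold in either direction. Of 10931 genes 0.558% passed, so the members' count is near the background. The members lay between -0.30 for BAK1 and 0.16 for MCL1. BBC3 was at -0.29 and TP53I3 at -0.14. On their other probe sets above the floor BAK1 was at 0.01 and BBC3 at 0.04.

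The wider death pathway was described from lists of genes outside the 10 members. The lists were chosen with earlier results of these data known, so their counts describe them and are no test. They held 58 genes on the array, 49 of them reaching the floor somewhere, and 10 of the 49 were at least 1.5-fold higher with MPA and 4 lower, with a median of 0.04. Of all genes 5.31% were higher, 7.31% lower and 12.6% either, so the 4 lower are near the background. Among other p53-linked death genes, 6 of 9 were at least 1.5-fold higher and 0 lower, with a median of 0.91. The highest were TP53INP1 at 3.10, ZMAT3, an RNA-binding protein gene, at 1.85 and PIDD1, which assembles a caspase-activating complex, at 1.30. A second TP53INP1 probe set differed by 0.08. The lowest were SIVA1 at -0.48, PERP at 0.18 and EI24 at 0.34, but another SIVA1 probe set was at 0.16 and another of PERP at -0.10.

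In the death receptor list, 2 of 8 further genes were at least 1.5-fold higher and 0 lower, beside 5.31% and 7.31% of all genes. With 8 genes, 0 lower cannot be set apart from that share. TNFRSF10C, a decoy receptor for TRAIL, read 42.4 in control and 154.0 with MPA, at least 2.44-fold higher, and it was above the floor on the MPA array alone. TRADD, an adaptor of TNF receptors, was at 0.62 and the decoy receptor gene TNFRSF10D at 0.46. The adaptor FADD was at -0.20, the caspase inhibitor CFLAR at -0.19 and CASP8, the initiator caspase of these receptors, at 0.04.

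The further BCL2-family genes were few. Of 6 other BH3-only genes above the floor, 0 passed 1.5-fold in either direction. That count is too small to set apart from the 12.6% of all genes. The highest were BMF at 0.44, BCL2L11 at 0.07 and BNIP3 at 0.01. The lowest were BAD at -0.35, BNIP3L at -0.17 and BIK at 0.01. The other BNIP3L probe sets above the floor lay between -0.03 and 0.07. BCL2L11, which encodes BIM, had another probe set above the floor at 0.78. BCL2L2 was at 0.27 and BCL2 at 0.02 among pro-survival genes, and BCL2A1 and BCL2L10 were below the floor on all 4 arrays. The effector gene BOK was at 0.27.

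In the list of apoptosome, caspase and inhibitor genes, 11 of 14 above the floor were lower with MPA and 3 higher. Of all genes 50.8% were higher. The median was -0.21, and 3 of the 14 were lower by at least 1.5-fold, as were 7.31% of all genes. CASP2, a caspase that the PIDD1 complex activates, was at -0.91, BIRC5 (survivin, a mitotic and anti-apoptotic protein) at -0.79 and BIRC2, an inhibitor of apoptosis, at -0.71. The 5 BIRC2 probe sets lay between -0.77 and -0.50. DFFB at 0.16, HTRA2 at 0.16 and CASP9 at 0.14 were the highest. APAF1, which forms the apoptosome, was below the floor on all 4 arrays.

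Among p53 regulators, PPM1D, a phosphatase that switches p53 off, was at 1.85 with MPA and MDM2 at 1.12, and CHEK2 at 0.37. MDM4, which restrains p53, was lowest at -0.59, with its other probe sets above the floor between -0.59 and -0.53. ATM was at -0.30 and USP7 at -0.20. Another ATM probe set above the floor was at -0.04, and those of USP7 lay between -0.59 and 0.08. With guanosine present, 0 of the 49 genes of these lists passed 1.5-fold between both compounds and guanosine alone. Of 10861 genes 0.0184% did, so this count is near the background.

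**Figure D4:**
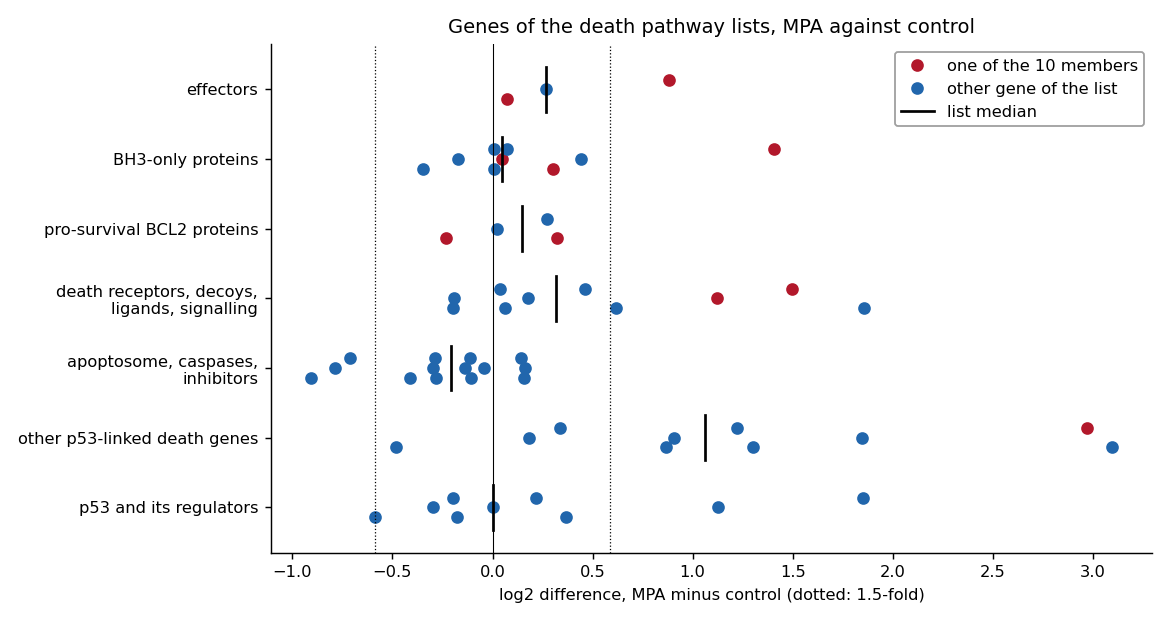
Log2 difference between the MPA and control arrays for the genes of each death pathway list that reach the floor on at least 1 array, 1 point per gene at its brightest probe set. Red points are the 10 members, blue points other genes, black bars list medians over both, and dotted lines 1.5-fold. The list of apoptosome, caspase and inhibitor genes lies mostly left of 0. The list of other p53-linked death genes lies mostly right of the upper line.

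For the members whose signal spanned at least 1 log2 unit over the 4 arrays, the genes of most similar pattern were found among 11271 others by distance over the 3 differences from control. TP53I3 was closest to the stress cytokine gene GDF15 (distance 0.11 in log2 units), then SUGCT (0.39) and GAL3ST4 (0.39). FAS was closest to CH25H (0.11), HSPB3 (0.12) and AVPI1 (0.12), BBC3 to PRAG1 (0.09), CYB561A3 (0.13) and NEURL1B (0.15), and TNFRSF10B to C1S (0.05), GADD45A (0.07) and PLXNB2 (0.07). GADD45A is a growth arrest gene, and it read 967.0, 2050, 966.0 and 979.0 in the order of control, MPA, guanosine and both. Such likeness rests on 4 arrays.

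The arrays as wholes were close to each other. Across all probe sets, log2 values of any pair of arrays correlated at r between 0.988 and 0.998, with the MPA array in the 3 lowest pairs. All 6 mesenchymal glioma markers were above the floor on every array, with a summed signal of 52920 to 54082, lowest with MPA. Among them NES read 221.0 in control and 142.0 with MPA, a difference of -0.63, and FN1 was at 0.21. Of 5 astrocyte markers AQP4, S100B and SOX2 were below it on all 4, OLIG2 reached it on 2, and GFAP on all 4 at 106.0 to 137.0. The summed signal of the astrocyte list was 265.0 to 314.0. The leukocyte markers were below the floor throughout, 4 of 4, at a sum of 83.0 to 91.0, and the endothelial list summed to 278.0 to 309.0. The epithelial list summed to 193.0 to 249.0, and the neuron and oligodendrocyte list to 1429 to 2178, mostly through SNAP25. The sums of all 5 lists of other cell types were highest on the MPA array. The part of these markers in the members' differences was not tested. The 12 probe sets of the poly-A transcripts added before labelling were all lower on the MPA array than in control, with a median of -0.29, and all higher with guanosine (0.22) and with both compounds (0.27). Relative to them the MPA differences of the members would be larger by about that amount and MCL1 would stand at 0.05 in place of -0.23.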

How the data were processed

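The deposited values are RMA signal intensity on a linear scale, 1 column per array, per the labels, which name RMA but no settings. RMA corrects background, equalises the arrays' distributions and summarises the probes of a set, so a change in total mRNA per cell would not show. Its software was not given in the sources used here. The log2 of each value was taken, probe sets were named through the platform's gene table (all 30 member probe sets kept their symbol in RefSeq), and the median over non-control probe sets and arrays, 63.0, served as a floor. A gene was compared where the brighter array reached the floor, and was read from its brightest probe set on average, cross-binding (_x_at) sets included. A fold against an array below the floor is given as "at least". Named were all members, the 3 highest and 3 lowest other genes of each list, and the 3 nearest patterns of each member spanning 1 log2 unit. The members and lists were chosen with earlier results of these data known. Some genes of the lists were not analysed here. Counting was tested on simulated data. Python 3.11.15, pandas 2.3.3, R 4.3.3 and limma 3.58.1 (cyclic loess) were used.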

Additional observations from a re-analysis of the deposited data

Results flagged for a closer look

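The MPA difference had opposite signs without and with guanosine in 5 members, and this difference was not tested. Its change was -1.55 for BBC3, -1.56 for FAS, -1.14 for TNFRSF10B, -0.19 for BAK1 and 0.25 for MCL1 on the log2 scale. With guanosine present the MPA differences of these 5 genes lay between -0.14 and 0.01, so the second sign rests on values near 0. Opposite signs were not counted over all genes. Of these, 50.8% were higher in MPA against control and 58.9% in both compounds against guanosine, so the members' count cannot be set apart from the background. The signs agreed on another probe set above the floor for FAS, TNFRSF10B, BAK1 and MCL1, and were opposite on the other one of BBC3.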

How the results depend on the processing

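No paired analysis was possible because each condition has 1 array. A log2 value was called moved when it shifted by more than 0.10, the SD of both compounds against guanosine over genes, and a count when it differed by more than 1.5 times. By these limits removing the floor or adding 16 before log2 moved no value, though the offset took the probe sets past 1.5-fold in MPA against control from 13 to 12, and no member past 1.5-fold changed sign under any of the 8 alternatives. With the floor at 244.0, the probe sets past 1.5-fold numbered 7 in place of 13 in MPA against control, 8 in place of 13 in both compounds against MPA and 7 in place of 13 for the change with guanosine, and the members' medians there were 0.88, -0.86 and -0.78; fewer members were compared. Without cross-binding probe sets the medians were 0.46 for MPA against control and -0.50 for both compounds against MPA. That choice took the members past 1.5-fold in MPA against control from 5 to 6, with BCL2L1 lower. Reading each gene as the median of its probe sets above the floor gave 6 members in place of 5 in both compounds against MPA. There MCL1 was higher, at 0.66. For both compounds against MPA, the median was -0.77 after cyclic loess and -0.77 after centring each array. Scaling on the poly-A probe sets, an alternative chosen after seeing the data, moved the median of all genes in MPA against control from 0.01 to 0.29 and the members' median to 0.89. It gave -0.35 for guanosine and -0.35 for both compounds against control, -1.23 with 9 members past 1.5-fold for both compounds against MPA, and -0.87 for the change with guanosine. Precision is limited by having 1 array per condition.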

Other observations

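Some genes of the death lists stood out outside the main comparisons and were chosen after their values were seen. BNIP3 and BNIP3L, mitophagy genes of the BCL2 family, were higher with guanosine than in control by 0.27 and 0.41, and higher with both compounds by 0.20 and 0.34. Under MPA alone they were at 0.01 and -0.17, but the other BNIP3L probe sets above the floor lay between -0.03 and 0.07. BCL2L2, a pro-survival gene, was above control on all 3 treated arrays, by 0.27 with MPA, 0.33 with guanosine and 0.39 with both. TNFRSF10A, the second TRAIL death receptor gene, was below the floor on all 4 arrays but had its highest signal with MPA, 49.4 against 20.7 in control, 18.7 with guanosine and 17.4 with both.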
